A study of Mus musculus with 14 samples.

Results

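Distal p300 regions that appeared in mouse gastruloids, had no p300 peak in the stem cells the gastruloids were grown from, and carried none of 3 profiled transcription factors numbered 16839 of the 53025 p300 regions of gastruloids, or 31.8%. They were chosen by peak presence in these libraries. A p300 region was a stretch with a peak in both gastruloid replicates, after peaks that overlapped a peak of an input were removed. Of the 53025 regions, 34812 overlapped no peak of either p300 library of mouse embryonic stem cells (mESCs). Of these, 28523 were distal, with their strongest summit over 1 kb from both ends of every protein-coding gene. The 16839 members are the 59.0% of those distal regions that also overlapped no peak of any RXRα, Sp5 or Zeb2 library of gastruloids.

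Gastruloids are aggregates of mESCs that lengthen and form derivatives of the germ layers in culture. Here 300 cells were sorted into each well, CHIR99021 (an inhibitor of GSK3 that activates Wnt signalling) was given at 3 µM at 48 h, and gastruloids were collected at 120 h. The 14 libraries comprise 12 immunoprecipitations, in pairs, and 1 input for each cell type. The labels name 1 cell line throughout, E14_triple reporter, while the growth protocol describes a dual BRA-GFP and SOX17-RFP reporter line. The p300 libraries and both inputs came from cells in which endogenous p300 was fused to V5 and miniTurboID, precipitated with a V5 antibody. RXRα (in mESCs and gastruloids), Sp5 and Zeb2 (in gastruloids only) were tagged at their own genes with HA and an FKBP12F36V degron and precipitated with HA antibodies. The factors were therefore profiled in other tagged lines than p300, a different antibody was used, and neither a clone number nor separate cultures for the 2 replicates are stated. A gastruloid holds many cell types, so a peak can come from a part of the cells, and fewer cells carrying a site cannot be told apart from weaker occupancy in each.

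p300 is a coactivator with acetyltransferase activity. It does not recognise a DNA sequence itself but is brought to enhancers by transcription factors and acetylates histones there, and p300 peaks away from gene starts are widely used to map active enhancers. RXRα is the nuclear receptor that partners the retinoic acid receptors, Sp5 is a zinc finger protein induced by Wnt signalling in the tail bud, and Zeb2 is a zinc finger homeodomain protein, mainly a repressor, with roles in neural and mesodermal development. Members are therefore places where p300 was found in gastruloids with none of these 3 DNA-binding proteins in the deposited peak lists.

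Although all members lie away from protein-coding gene ends, 507 (3.01%) had a summit within 1 kb of an end of a long non-coding RNA gene, against 6.14% of the distal gastruloid-only regions with a factor peak and 2.61% of distal regions shared with mESCs without one. The summits of 69 members fell in 71 promoter windows of RefSeq on build GRCm38.p6, each running from 250 bases before to 50 bases after a start. Of these windows, 56 belonged to long non-coding RNAs and 15 to protein-coding genes, the latter at starts inside the gene. The 250 bases before the start are shown for 5 of the long non-coding RNA windows, because these members are where the promoter table holds the DNA under a p300 summit. They are the 4 with the highest p300 fold among windows with a summit in those 250 bases, and Dnm3os, all picked after their values were seen. Sequences are written 5′ to 3′ on the strand of the transcript, and capitals mark matches on either strand to the 27 short factor motifs that were searched.
9230102K24Rik: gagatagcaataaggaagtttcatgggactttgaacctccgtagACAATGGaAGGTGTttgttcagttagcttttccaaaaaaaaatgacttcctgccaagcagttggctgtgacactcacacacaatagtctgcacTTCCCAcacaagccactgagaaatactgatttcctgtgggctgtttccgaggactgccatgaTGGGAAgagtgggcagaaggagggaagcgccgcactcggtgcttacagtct
Gm31816: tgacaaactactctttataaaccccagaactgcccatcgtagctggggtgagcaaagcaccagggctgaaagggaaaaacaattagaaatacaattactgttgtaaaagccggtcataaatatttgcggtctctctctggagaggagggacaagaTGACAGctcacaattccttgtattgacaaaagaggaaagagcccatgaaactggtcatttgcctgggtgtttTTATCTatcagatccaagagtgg
Gm33767: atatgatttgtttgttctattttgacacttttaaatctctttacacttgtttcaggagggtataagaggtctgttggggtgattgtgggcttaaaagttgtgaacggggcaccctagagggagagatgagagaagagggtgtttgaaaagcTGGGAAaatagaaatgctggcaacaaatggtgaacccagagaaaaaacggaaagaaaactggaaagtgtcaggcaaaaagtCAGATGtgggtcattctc
9130230L23Rik: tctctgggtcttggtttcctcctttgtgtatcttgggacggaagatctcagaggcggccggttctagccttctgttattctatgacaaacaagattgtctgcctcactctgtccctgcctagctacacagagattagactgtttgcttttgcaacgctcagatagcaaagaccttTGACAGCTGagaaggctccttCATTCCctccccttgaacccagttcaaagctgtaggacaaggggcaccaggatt
Dnm3os: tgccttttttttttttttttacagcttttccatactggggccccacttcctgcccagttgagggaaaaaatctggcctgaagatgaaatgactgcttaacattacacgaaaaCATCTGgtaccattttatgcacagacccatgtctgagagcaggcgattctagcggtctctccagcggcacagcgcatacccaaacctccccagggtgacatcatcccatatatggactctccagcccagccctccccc

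The window before 9230102K24Rik lies at chr10:110600400-110600649 on the plus strand, and its nearest protein-coding gene is Nav3. Its member reached a p300 fold (signal at the summit over local background, as the authors' peak caller gave it) of 15.7 in replicate 1 and 15.4 in replicate 2. The summit is base 42 of the printed run, 3 bases before the first base of a SOX match (ACAATGG, from base 45), which is followed by the T-box letters AGGTGT from base 53. Gm31816 (chr9:47308001-47308250, minus strand, near the adhesion gene Cadm1) had folds of 10.6 and 15.9 and holds a MEIS and a GATA match. Gm33767 (chr6:38950111-38950360, minus strand, near the kinase gene Hipk2) had 12.8 and 11.8, and its summit at base 147 lies just before an RBPJ match at base 152. For 9130230L23Rik (chr5:66004286-66004535, minus strand) folds were 9.36 and 11.6, and a MEIS match at base 176 overlaps an E-box CAGCTG at base 179. Dnm3os, a long RNA that lies antisense within Dnm3 and hosts microRNAs, had 5.56 and 6.16 at chr1:162217373-162217622 on the plus strand.

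Over all 71 windows, the E-box CAGCTG was found in 22 (31.0%), against 16.3% of all 32851 promoter windows and 17.7% of the 11588 long non-coding RNA windows. The E-box CAGATG was in 29.6%, against 17.2% of all windows and 21.8% of those of long non-coding RNAs. GATA letters (AGATAA) were in 22.5% against 11.2% and 14.0%, ZIC letters (CAGCAGG) in 22.5% against 10.5% and 10.5%, AP-1 letters (TGANTCA) in 15.5% against 7.81% and 9.31%, and PBX-HOX letters (TGATTNAT) in 11.3% against 3.22% and 4.08%. The GC box GGGCGGG, which is also the element of Sp proteins such as Sp5, was in 2 windows (2.82%), against 25.6% of all windows and 10.3% of long non-coding RNA windows. CACCTG, the E-box that is also the Zeb element, was in 18.3% against 20.2% and 21.1%, and the nuclear receptor letters AGGTCA in 21.1% against 16.3% and 19.1%. The rule left out regions with a peak of Sp5, Zeb2 or RXRα, so it may bear on the shares of their elements. The motifs named are a part of the 27 searched and include those with the largest excess. Others marked in the sequences above lay nearer to or below the background. MEIS was in 23.9% against 19.2% and 20.1%, RBPJ in 29.6% against 25.6% and 27.5%, and the T-box letters AGGTGT in 9.86% against 13.7% and 15.7%. SOX was in 5.63% against 3.66% and 5.03%, and TEAD in 18.3% against 14.7% and 16.6%. These shares are a description of 71 windows, with both strands searched and a median GC content of 48.7%, close to the 48.3% of long non-coding RNA windows and below the 52.7% of all windows. They were not tested, and they describe the few members that lie at annotated starts. Windows under other p300 regions were not counted, so an excess is not shown to be particular to members.

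MicroRNA genes were also found under members. Of the 1005 hairpins in the RefSeq table of the same build, 76 overlapped any p300 region of gastruloids and 8 overlapped a member. That is a smaller part than the 31.8% of all p300 regions of gastruloids that were members. A summit within 1 kb of an end of a microRNA gene was found at 0.101% of members. The share was 0.231% for distal gastruloid-only regions with a factor peak and 0.0784% for distal regions shared with mESCs without one. None of this was tested. The mature sequences of 4 of them are shown, chosen after seeing which hairpins overlapped, with the seed (bases 2 to 8) in capitals. No 2 of the mature sequences from the 8 hairpins shared a seed.
mmu-miR-34a-5p: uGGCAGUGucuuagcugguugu
mmu-miR-30a-5p: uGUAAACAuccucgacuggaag
mmu-miR-153-3p: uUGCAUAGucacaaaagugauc
mmu-miR-3072-3p: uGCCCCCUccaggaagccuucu
The member over Mir34a, a microRNA induced by p53, lies at chr4:150068377-150068784 and had p300 folds of 6.99 and 6.64 in the 2 replicates. Mir30a lies under a member at chr1:23272004-23272466 with folds of 5.31 and 5.40. Mir153 is inside Ptprn2 and under a member at chr12:117250395-117250918 with 5.71 and 7.18, and the member over Mir3072, near the imprinted gene Rtl1, reached 7.39 and 7.06. The member over Mir7025 is inside Pdgfra, the receptor for platelet-derived growth factor of mesenchymal cells, and had folds of 6.75 and 9.58.

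At the median member the p300 fold was 5.98 in replicate 1 and 6.53 in replicate 2. Folds ran from 2.07 to 24.4 in replicate 1 and from 2.43 to 30.8 in replicate 2. The number of sequenced fragments at the summit, recovered from the authors' fold and −log10 p, had a median of 22 in replicate 1 (quartiles 16 and 31) and 18 in replicate 2 (quartiles 13 and 27). A count of this size carries a large counting error. Both replicates were needed for membership, so these levels describe the rule's own measure. Across the 16839 members the folds of the replicates had a Spearman correlation of 0.752, given as a description of libraries of the same protein. The strongest summits of the replicates lay a median of 33 bp apart, and within 100 bp at 89.0% of members. A single peak in each library made up 99.3% of members, with a median peak width of 382 bp in replicate 1 and 313 bp in replicate 2. A fold of at least 10 in both libraries was reached by 1644 members, and one of at least 20 by 27.

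**Figure D1:**
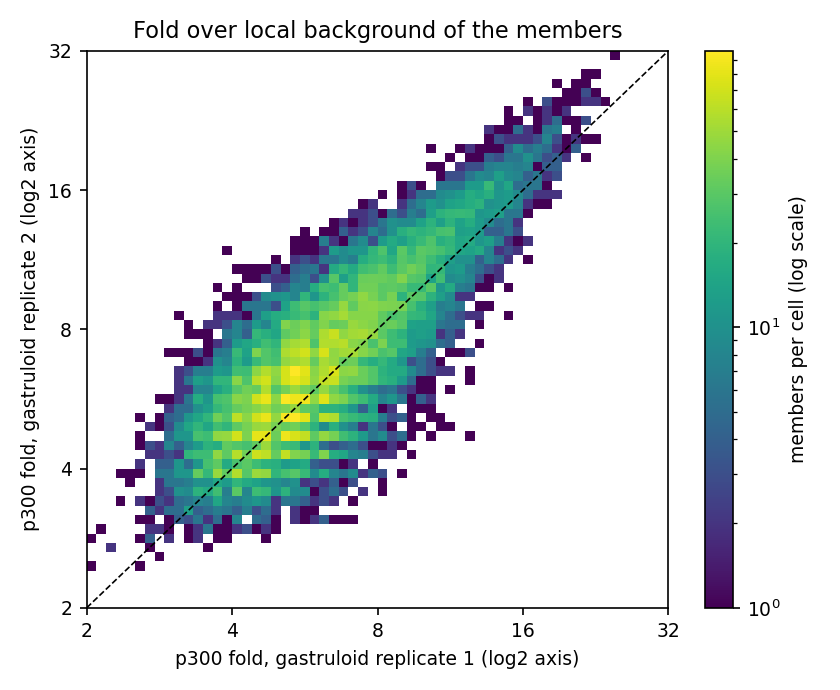
p300 fold over local background of the 16839 members in gastruloid replicate 1 (x axis) and replicate 2 (y axis), both on log2 axes, with colour for the number of members in each cell of the grid on a log scale and a dashed line of equal folds. Most members lie between folds of 4 and 10, and the strongest reach 24.4 and 30.8.

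Members were on the whole weaker p300 sites than those of other distal classes. The rule set no limit on fold, but it chose regions by which lists held a peak, so the medians were not tested. Their median of the mean fold over both replicates was 6.26, against 6.95 for the 11684 distal gastruloid-only regions with a factor peak and 7.91 for the 7655 distal regions that had a p300 peak in both mESC libraries and no factor peak. The 452 gastruloid-only regions without a factor at gene ends had a median of 5.65. When the 28523 distal gastruloid-only regions were ordered by mean fold and divided into 10 groups of equal size, the share without a factor peak was 53.7% in the weakest group, rose to 67.3% in the fourth, and was 51.5% in the ninth and 36.9% in the strongest. In the strongest group, 49.4% had a Zeb2 peak, 35.6% an RXRα peak and 18.1% an Sp5 peak, against 36.5%, 21.2% and 19.2% in the weakest group. These shares are given without a test, since the rule used the factor peaks.

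**Figure D2:**
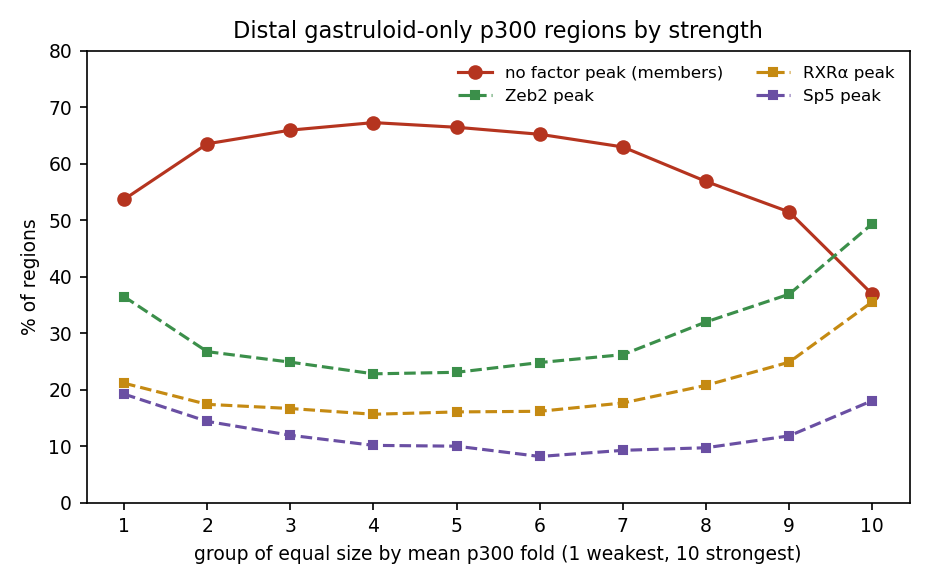
Share of the 28523 distal gastruloid-only p300 regions (y axis, %) without a factor peak, or with a Zeb2, RXRα or Sp5 peak, in 10 groups of equal size by mean p300 fold (x axis, weakest to strongest; a region can hold more than 1 factor). The share without a factor falls to 36.9% in the strongest group, while the share with Zeb2 reaches 49.4%, and the share with Sp5 is about as high in the weakest group (19.2%) as in the strongest (18.1%).

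The factor lists that decide membership were of unequal length. Replicates 1 and 2 listed 44831 and 12496 peaks for Zeb2, 30318 and 3236 for RXRα, and 20197 and 12366 for Sp5. Of the 28523 distal gastruloid-only regions, 8655 (30.3%) had a Zeb2 peak, 5767 (20.2%) an RXRα peak and 3508 (12.3%) an Sp5 peak, and Zeb2 was the only factor at 4186. RXRα replicate 1 alone gave 5718 of these regions a peak and replicate 2 gave 694. If a factor was counted only where both of its replicates had a peak, 24701 regions would be members. The lowest number of fragments at any listed peak was 6 to 9 in the factor lists of gastruloids and 10 and 9 in the p300 lists of mESCs, so absence of a peak is absence from a list and not of the protein. Of the members, 11631 (69.1%) had at least 14 fragments in both p300 gastruloid libraries, the fifth percentile of the peaks listed in p300 mESC replicate 1. The nearest factor peak lay a median of 11566 bp away from a member, with 8.20% of members within 1 kb of one and 27.8% within 5 kb. The nearest p300 peak of mESCs lay a median of 17499 bp away.

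Regions next to the 1 kb limit were as follows. Just inside it, the members nearest to a gene end were at Sftpd and Pde10a (both 1002 bp) and Slco1c1 (1004 bp), with mean folds of 7.75, 4.47 and 11.04. Just outside it were regions at Hacd3 (995 bp), Idnk (993 bp) and Zfp334 (987 bp), with 3.68, 3.89 and 6.46.

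At the median, members lay farther from genes than either other distal class, though not at the longest distances. The median distance of a member's summit to the nearest end of a protein-coding gene was 42.9 kb, with quartiles of 14.0 kb and 122 kb, against 29.6 kb for distal gastruloid-only regions with a factor and 28.4 kb for those shared with mESCs. Only 9.48% of members were 1 to 5 kb from a gene end, where 15.3% of regions with a factor and 13.1% of shared regions lay. Between 100 and 500 kb the shares were 25.8%, 20.5% and 18.1%, and over 500 kb they were 3.83% (645 members), 1.89% and 4.02%. Because distance took part in the rule it is described without a test. The median also moved with strength, from 29030 bp in the weakest of 10 equal groups of members by mean fold to 55371 bp in the strongest.

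**Figure D3:**
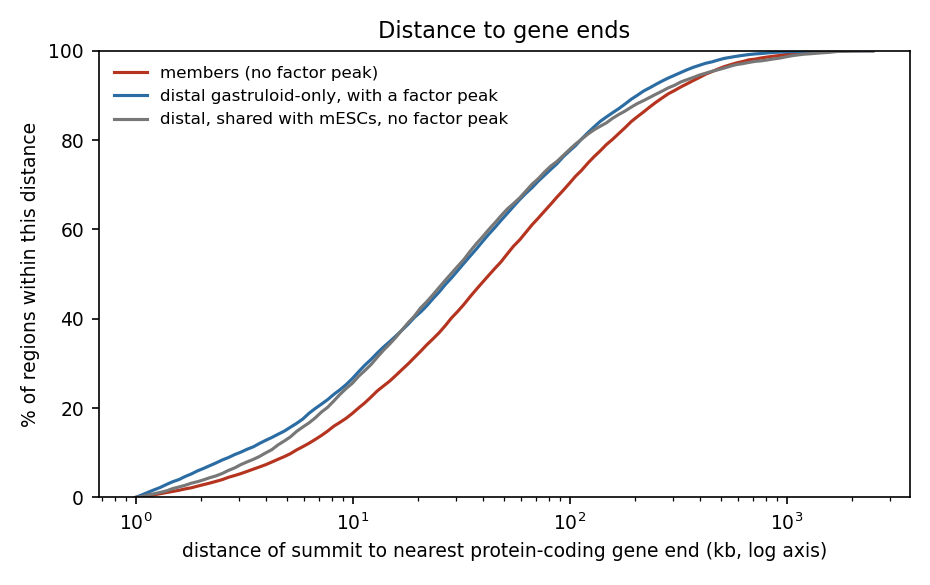
Cumulative share of regions (y axis, %) within a given distance of the nearest protein-coding gene end (x axis, kb, log scale) for the 16839 members, the 11684 distal gastruloid-only regions with a factor peak and the 7655 distal regions shared with mESCs without a factor. Over most of the range the curve of the members lies to the right of the others, with a median of 42.9 kb, but over 500 kb it lies to the left of that of shared regions.

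Whether a summit lay inside a gene was not part of the rule. It did so at 7866 members (46.7%), where 47.7% of all 43437 distal p300 regions of gastruloids were inside a gene. Among distal gastruloid-only regions with a factor peak, 5897 (50.5%) were inside, so members were inside genes less often by 3.76 percentage points (difference −3.76, 95% interval −4.94 to −2.58, odds ratio 0.860, two-sided Fisher's exact test, p = 8.68e-10 adjusted over 2 comparisons). Against distal regions shared with mESCs, of which 43.4% were inside, members were higher by 3.28 points (interval 1.94 to 4.62, odds ratio 1.14, adjusted p = 1.81e-06, Fisher's exact test). The test treats regions as separate units, although all regions were called in the same libraries and neighbours may not be independent, so the intervals cover counting error only. Distance to gene ends, which the rule used, differed between the classes and was not held equal here. With a 5 kb limit the difference from regions with a factor was smaller, as given at the end. The share inside a gene fell with p300 fold, from 51.8% in the weakest of these 10 groups of members to 39.5% in the strongest. Within 3 equal groups of regions by p300 fold, a split chosen after seeing this, the difference from regions with a factor was −6.45, −4.26 and −2.95 points and passed the test in each group (adjusted Fisher p from 4.18e-10 to 0.0126). The difference from shared regions was 2.37, 2.25 and 1.25 points and did not pass in any group (adjusted Fisher p = 0.0779, 0.0644 and 0.274).

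Occupancy by RXRα before differentiation was measured in libraries the rule did not use, but the rule bears on it. Regions with a p300 peak in mESCs or an RXRα peak in gastruloids were left out of the members. A share below that of all p300 regions is therefore a description only. Of the 16839 members, 681 (4.04%, 95% Wilson interval 3.76 to 4.35) overlapped an RXRα peak of mESCs, 652 in replicate 1, 220 in replicate 2 and 191 in both. A lower share away from gene ends was not particular to members. Over all p300 regions of gastruloids the share was 36.0%, and over the distal ones 30.1%. At the 452 gastruloid-only regions without a factor at gene ends it was 45 (9.96%), a difference of −5.91 points from members to gene ends (interval −8.69 to −3.14, odds ratio 0.381, two-sided Fisher's exact test, p = 7.72e-08). The direction and call held without either mESC RXRα library, but the difference was −2.68 points without replicate 1, −3.75 points without p300 gastruloid replicate 1, −3.60 points with members over 5 kb from gene ends, and −24.7 points where a factor had to be found in both replicates. As a description, 19.1% of distal gastruloid-only regions with a factor and 69.2% of distal shared regions without one had an RXRα peak in mESCs; the latter class was defined by p300 peaks of mESCs.

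The 8 strongest members with an RXRα peak in mESCs included 2 found in both RXRα libraries. One was inside Tcf7l1, a TCF repressor of Wnt targets that restrains the pluripotent state, at chr6:72641418-72641920. Its p300 folds in gastruloids were 14.4 and 16.5, and its RXRα folds in mESCs 9.08 and 6.43. The other was inside Ninl, with p300 folds of 13.4 and 16.01 and RXRα folds of 11.8 and 5.86. The remaining 6 had the RXRα peak in 1 library only. They were near Las1l (17.9 and 24.4 for p300), inside Utrn, the gene of the dystrophin relative utrophin (17.99 and 20.3), near Tnp1 (16.04 and 19.6) and Olfr1034 (mean of both 15.8), inside Zfp609 (14.1 and 17.4) and near Spon1 (14.2 and 14.9).

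Of the 12 strongest members, 11 are described. Xrcc4, a gene of DNA end joining, held one in its body with folds of 22.4 and 28.1 from 226 and 202 fragments (chr13:90039455-90040083), followed by a member 71638 bp from the AMPA receptor gene Gria1 (21.9 and 28.2, chr11:57401635-57402198). Next came members inside Tecrl, a gene of cardiac muscle (21.7 and 26.8), 358758 bp from the enteropeptidase gene Tmprss15 (22.9 and 25.5) and 392393 bp from the predicted gene Gm51425 (23.9 and 24.3). Pkd1l1, a polycystin gene of left-right patterning, held one in its body at chr11:8970417-8970999 (20.9 and 27.2). The others were near Csmd3 (22.7 and 25.0), the sorting nexin gene Snx12 (22.7 and 24.9), and Cyp2d40 (21.2 and 25.6), and inside Gm16527 (21.7 and 25.5) and the transporter gene Abca8b (21.3 and 25.7). All 11 had a higher fold in replicate 2 than in replicate 1, and none overlapped an RXRα peak of mESCs or had its nearest gene in any of the gene lists used below. A nearest gene is a position on the map, and no measurement here links a region to a gene it acts on.

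A member was given to whichever gene end lay closest, up to 100 kb away, which placed 11845 members (70.3%) at 6501 of 21887 protein-coding genes (29.7%). One member was held by 3767 genes, 2 by 1397 and 3 by 669, and the highest number was 13. Epha4 held these 13. It encodes an Eph receptor of somite boundaries, hindbrain segments and growing axons. Of its members 8 were inside the gene, 3 downstream and 2 upstream. The strongest lay downstream at chr1:77308093-77308558 with folds of 14.7 and 16.6 from 123 and 92 fragments. Its weakest was inside the gene with folds of 4.29 and 3.61, and 5 further distal gastruloid-only regions near Epha4 carried a factor. Creb5, which encodes a leucine zipper factor of the CREB family, held 12 and only 1 region with a factor. Its strongest was downstream at chr6:53738094-53738810, with 14.5 and 19.8. Ncam1, the neural cell adhesion molecule, held 11, 9 of them inside the gene, with its strongest at 9.54 and 12.1.

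Another 4 genes held 10 members. At the polarity gene Pard3, 8 of the 10 were inside the gene and the strongest, 91961 bp from its end, had folds of 13.8 and 15.96. Angpt1, the ligand of the endothelial receptor Tek, had its strongest 3662 bp from the gene end, with 11.9 and 11.2. The zinc finger gene Zfp608 (12.6 and 15.4 at its strongest) also had 9 regions with a factor, and BC052040 (9.36 and 14.9) had 5. Dact1, an antagonist of Dishevelled in Wnt signalling, held 9, all outside its short gene body, with 12.3 and 16.1 at its strongest. Some of these lay inside another gene, 2700049A03Rik. Per length of the stretch of genome assigned to the gene, Dact1 had 4.70 members per 100 kb, Epha4 3.74 and Creb5 3.36, where all genes together had 0.697. These genes were picked for holding the most members, so values above that of all genes follow from the choice. Sema6a, a guidance semaphorin, and the adhesion receptor gene Adgrl2 also held 9. The matrix gene Frem1, the transporter gene Slc22a22, the lipid kinase gene Dgki, the calcium channel gene Itpr2 and the protease gene Adamts20 held 8 each. Slc22a22 and Itpr2 had no distal gastruloid-only region with a factor.

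**Figure D4:**
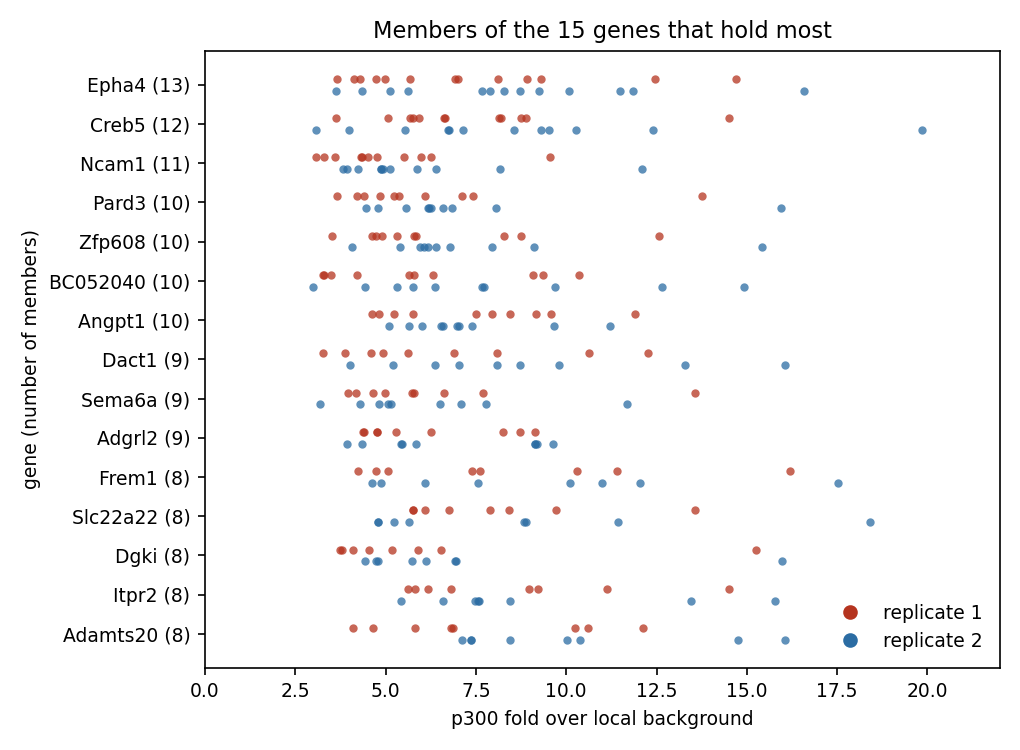
p300 fold over local background (x axis) of every member assigned to the 15 genes that hold most (y axis, number of members in brackets), 1 point per member and gastruloid replicate. Most genes hold 1 or a few members of high fold among weaker ones, with Creb5 reaching 19.8 in replicate 2.

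Members were also found in tight groups. The densest windows of 50 kb held 6 members, and 5 such windows are described. In the first, 39948 bp beside and inside Ifitm10 on chr7 (first summit at 142290735), all 6 p300 regions were members, with mean folds from 4.99 to 12.4. All 6 regions of a window in and beside Hs2st1, a heparan sulfate sulfotransferase gene on chr3, were members too, at 5.11 to 14.0. The nearest gene end was that of Gm43707 for 4 of them. The window inside Epha4 held 11 p300 regions, of which 6 were members, 2 carried a factor and 3 had a p300 peak in mESCs. Near Tpm1, which encodes a tropomyosin, 6 members fell in 19858 bp, the shortest span, with 1 further p300 region that had an mESC peak. These 6 had folds of 3.14 to 9.27 in replicate 1 and 3.64 to 12.2 in replicate 2. The 6 members nearest Gja1, the connexin gene of cardiac and other gap junctions, lay far from it, at 361069 to 409162 bp, with mean folds of 5.02 to 9.34 and no other p300 region among them. Over the genome the median gap between neighbouring members was 76613 bp.

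Members were then counted at genes of 12 lists of lineage and signalling genes. Of all 20913 distal gastruloid-only regions assigned to a gene, 56.6% held no factor peak. In each of the 12 lists this share was lower, from 22.95% for Hox genes to 53.8% for genes of adult tissues. Members per 100 kb of assigned genome numbered 0.697 for all genes. They ranged from 1.04 to 1.76 for the streak, somite, Wnt, Hox, endoderm, retinoic acid and endothelium lists, and from 0.698 to 0.798 for the control, neural crest, cardiac, neural tube and pluripotency lists. No test was made of any list, the lists share some genes, and their members are few. Leaving out p300 gastruloid replicate 1, so that each peak of replicate 2 counts, raised 11 of the 12 list counts by over 1.5 times, all but that of somites, for example from 22 to 50 for the neural tube. The number of all members rose in this setting too, as given at the end, so such rises are not particular to the lists.

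**Figure D5:**
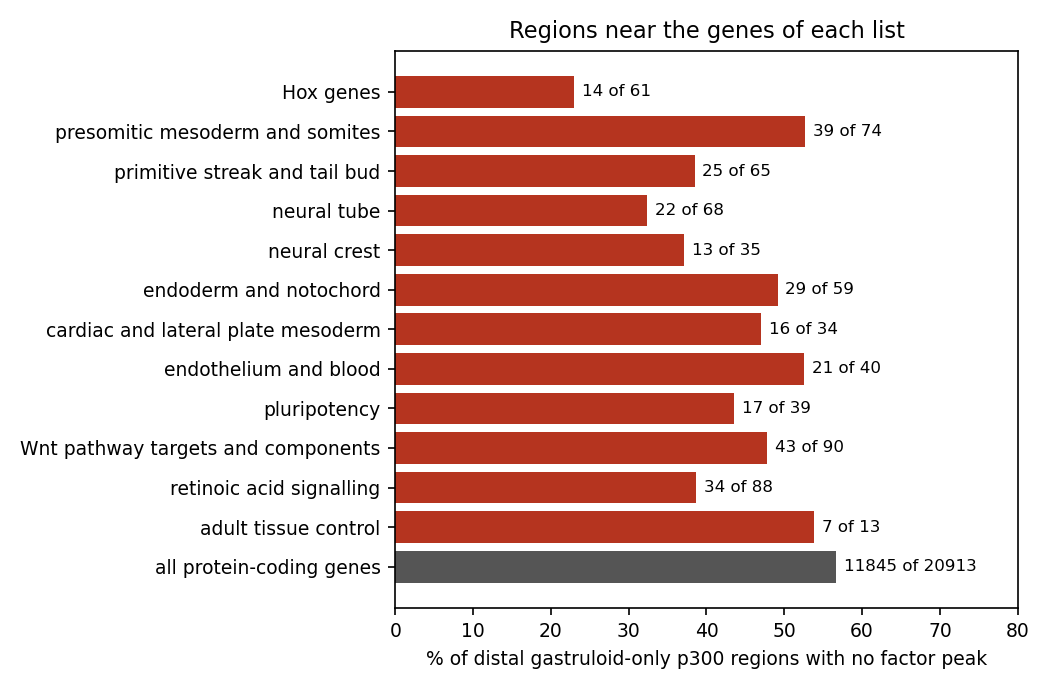
Share of distal gastruloid-only p300 regions that carry no factor peak (x axis, %) among regions assigned to the genes of each list (y axis), with the counts beside each bar and all protein-coding genes in grey. The Hox genes have the lowest share, 14 of 61 regions, and all genes together 11845 of 20913.

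Hox genes, the homeobox genes of head-to-tail position, had 14 members at 13 of 39 genes, beside 47 distal gastruloid-only regions with a factor. Hoxc4 held 2 members, the stronger inside the gene with folds of 8.02 and 11.6. Hoxc6 had 1 in its body (7.42 and 10.5, from 182 and 192 fragments) and Hoxc8 1 (8.46 and 9.66). The member nearest Hoxa4 lay 6675 bp from it, inside the gene model of Hoxa3, with 10.01 and 11.99 and 185 and 175 fragments. These are the strongest at each gene, and the other member at Hoxc4 had 3.92 and 5.40. The median of the mean fold over the 14 members at Hox genes was 5.42, below the 6.12 of all members assigned to a gene. The gene models of a Hox cluster overlap, so the nearest gene is uncertain.

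Genes of presomitic mesoderm and somites had 39 members at 16 of 23 genes and 35 regions with a factor, so 52.7% held none, with 1.75 members per 100 kb. Pax3, a factor of somites, dorsal neural tube and neural crest, held 7. Its strongest was inside the gene at chr1:78110229-78110765, with folds of 16.6 and 23.9 from 167 and 188 fragments. A further member inside Pax3 had 15.2 and 15.6, and one 29901 bp outside it 12.6 and 15.4, while the weakest had 3.36 and 3.98. Foxc1, a forkhead factor of paraxial mesoderm, held 6 and 1 region with a factor, and its strongest lay 60993 bp away (10.5 and 11.4). The protocadherin gene Pcdh19 (11.01 and 11.1) and the sclerotome gene Pax9 (6.77 and 12.03) held 4 each. All members assigned to Pax9 lay inside another gene, Slc25a21.

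Primitive streak and tail bud genes had 25 members at 11 of 21 genes beside 40 regions with a factor, and 38.5% held none. Lhx1, a LIM homeobox gene of early mesoderm, held 5, all upstream, at folds of 3.41 to 5.87 in replicate 1 and 4.42 to 7.17 in replicate 2. Eomes, a T-box gene of the streak, held 4, with 9.84 and 11.7 at its strongest. Cyp26a1, which encodes an enzyme that degrades retinoic acid, held 3 (8.02 and 10.7 at the strongest) and Greb1 3 (5.95 and 10.1). Of 4 marker genes of the tail bud and streak, T, Cdx2 and Wnt3a held no member and 2, 3 and 2 regions with a factor, while Nkx1-2 held 1 member and no region with a factor. Having no member is common, as it holds for 15386 of the 21887 genes.

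In the neural tube list, 11 of 23 genes had 22 members beside 46 regions with a factor, so 32.4% held none. Irx5 held 6, the strongest 70827 bp away with 11.04 and 12.5, and its neighbour in the same cluster Irx3 held 3 (9.39 and 8.71). Sox2 and Pou3f3 held 2 each, with the strongest at 9.56 and 6.47 for Sox2 and at 7.12 and 6.23 for Pou3f3. The neural crest list had 13 members at 6 of 11 genes, where 37.1% held no factor. Sox9 held 4 of them (8.65 and 8.77 at the strongest), Ets1 3 (9.99 and 12.8), and Mitf, the regulator of melanocytes, 2 (11.1 and 15.5). Ngfr also held 2, at 3.20 and 4.65 for the stronger.

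Endoderm and notochord genes had 29 members at 12 of 18 genes, and 49.2% of their regions held no factor. Epcam, an epithelial adhesion molecule, held 6, all upstream, with 6.09 and 8.86 at the strongest and no region with a factor. Nog and Shh, which encode a BMP antagonist and the hedgehog ligand of the notochord, held 4 and 3, also with no region with a factor. The strongest at Shh lay 10062 bp away with 9.37 and 12.8, and that at Nog 19897 bp away with 7.46 and 6.99. Foxa2 held 3, the strongest 81123 bp away (8.38 and 8.27). At the genes of cardiac and lateral plate mesoderm there were 16 members at 9 of 15 genes, with 47.1% of regions free of a factor. Tbx5 (9.71 and 14.7) and Mef2c (7.41 and 9.40) held 3 each, and Isl1 (8.26 and 8.52) and Osr1 (7.05 and 10.1) held 2.

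For endothelium and blood, 8 of 16 genes had 21 members and 52.5% of regions held no factor. Kdr, the receptor for vascular endothelial growth factor on endothelial precursors, held 7 members and 1 region with a factor. Its strongest lay 65027 bp upstream at chr5:76043821-76044557, with folds of 15.9 and 19.8 from 120 and 118 fragments. Downstream members reached 10.7 and 15.9, and 10.7 and 14.5, while the members inside Kdr had 5.41 and 9.14, and 5.20 and 5.50. Runx1, the regulator of blood cell emergence, also held 7, of which 6 were inside the gene, with folds of all 7 from 4.17 to 7.53 in replicate 1 and 3.62 to 8.90 in replicate 2. Pecam1 held 2 (3.48 and 2.95 at the stronger) and Tek 1 (10.4 and 10.6).

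Pluripotency genes had 17 members at 10 of 20 genes, beside 22 gastruloid-only regions with a factor and 41 regions shared with mESCs without a factor. The last number was the highest of the 12 lists. Nr5a2 held 5 (7.22 and 7.96 at the strongest), Esrrb 3 (4.30 and 7.18), Sox2 2 and Klf5 1 (9.02 and 8.77). Zfp42 and Klf4, which are also markers of mESCs, held 1 each. Pou5f1 and Nanog, core factors of the pluripotent state, held none, as was the case for 15386 of the 21887 genes.

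Wnt pathway genes had the highest share with a member among the lists, 14 of 17 genes (82.4%), against 29.7% of all genes. They had 43 members and 47 regions with a factor. Per 100 kb of assigned genome this list had 1.73 members, below the streak (1.76) and somite (1.75) lists. Of the 4 named, 3 encode the DNA-binding partners of β-catenin, the TCF and LEF proteins. Tcf7l2 held 6, the strongest 88779 bp away with 12.8 and 16.2. Tcf7l1 held 5, all inside the gene, of which 2 had an RXRα peak in both mESC libraries, the one at 14.4 and 16.5 described above and a weaker one at 4.61 and 5.11. Lef1 held 4 (11.2 and 12.7 at the strongest), and Znrf3, a ligase that removes Wnt receptors, held 5 (4.36 and 7.25). Retinoic acid genes had 34 members at 14 of 21 genes and 54 regions with a factor, and 38.6% held none. Meis2, a homeobox gene induced by retinoic acid, held 5 members (10.2 and 11.3 at the strongest) beside 9 regions with a factor. The retinaldehyde dehydrogenase gene Aldh1a1 held 4, all inside the gene and with no region with a factor, and the strongest had 14.0 and 10.9. The corepressor gene Nrip1 (8.92 and 10.7) and the retinal reductase gene Dhrs3 (6.50 and 8.60) held 4 each. The strongest member at Dhrs3 lay inside another gene, Vps13d.

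Genes of adult tissues served as a control list. Of 21 genes, 2 had members (9.52%), against 29.7% of all genes, but per length the list had 0.698 members per 100 kb and all genes 0.697. Mbp, the gene of myelin basic protein, held 5, of which 4 were inside the gene, with 10.8 and 13.2 at the strongest, and Ins1 held 2 (10.9 and 12.1). At Alb, Krt14, Cd3e, Ins2 and Ckm, markers of cell types that gastruloids are not meant to hold, there was no member. Such zeros say little, since 15386 of the 21887 genes had no member. Among the markers of gastruloid tissues Kdr held 7 members and Irx3, Meox1 and Foxa2 3 each, as many as the mESC marker Esrrb. Pax6 and Uncx held 2 each, and Sox1, Sox17, Gata4 and Msgn1 held 1 each, while Tbx6, Etv2 and Nkx2-5 held none.

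Members were found on all chromosomes. Of the distal p300 regions of gastruloids, they made up from 33.1% on chromosome 11 to 42.6% on chromosome 1, and 1 of the 3 regions on the Y chromosome was a member.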

How the data were processed

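Each of the 14 libraries had 1 deposited peak list. The submitters' processing notes name MACS2 2.2.7, BWA 2.2.1 and fastp 0.20.1 and the mouse build GRCm38.p6; the role of each tool and the control used are not given in the sources used here. Per the deposited lists, the score of a peak is its −log10 q times 10, the authors' fold is a ratio of summit signal to local background, and the −log10 p and −log10 q values are the authors' too. Sequencing depth is unknown. Fragments at a summit were solved from fold and −log10 p and came out whole within 0.01 at 99.06% or more of the peaks of every list for which they could be solved.

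Peaks on 21 chromosomes were merged, peaks at input peaks dropped, and overlaps of at least 1 bp used. RefSeq's gene table for that build gave 21887 protein-coding genes, without strand; upstream and downstream came from RefSeq's promoter table. Fisher's exact tests (scipy 1.17.1, Python 3.11.15, pandas 2.3.3, numpy 2.4.6, matplotlib 3.10.9) compared shares of regions, with 95% intervals for counting error alone. The region counting and the tests were checked on simulated data. No genome was used here, so the motif test planned around summits was not run, and the promoter windows and microRNAs were added in its place.

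Genes and regions named are the 12 strongest members, the 15 genes with most members, 4 genes per list, the 8 strongest with an mESC RXRα peak, 3 on each side of the 1 kb limit and 5 dense windows of 50 kb, beside the promoter and microRNA examples; 1 of the 12 members and 1 marker gene are not reported here. The rule, the lists and the members were chosen with earlier results of these data known.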

Additional observations from a re-analysis of the deposited data

How the results depend on the processing

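Alternatives were leaving out each library of the rule, a stricter peak threshold, p300 lists cut to equal length, no use of inputs, a stricter overlap, a 5 kb limit, other factor and gene assignment rules, and, chosen after seeing the data, 3 groups of p300 fold. No result changed direction. The number of members ranged from 16855 to 30712 when 1 library was left out, with 30712 without p300 gastruloid replicate 1, and was 7588 with p300 lists of equal length, when 3759 genes held a member. Genes with a member ranged from 6505 to 9186 without 1 library. Among members, the percent with an mESC RXRα peak ranged from 1.31 to 5.58 without 1 library (1.31 without mESC RXRα replicate 1) and was 3.39 with −log10 q of at least 5, 4.38 with equal lists and 7.14 with factor regions of both replicates. The difference from gene ends stayed past the test throughout, from −8.30 to −2.68 points without 1 library. For summits inside genes, the difference from regions with a factor was −4.57 to −3.54 points without 1 library, −1.69 with a 5 kb limit and −7.52 with factor regions of both replicates, and passed the test in each. That from shared regions, 2.71 to 3.88 points without 1 library, was 2.37, 2.25 and 1.25 points within the 3 groups of p300 fold, none past the test; the cause was not tested. Of 486 values for named genes and lists, 93 moved by over 1.5 times, 25 of them with a gene limit of 20 kb, 23 with equal lists and 11, all of them list counts, without p300 gastruloid replicate 1. Without p300 gastruloid replicate 2 the cardiac list had 25 members, and without Zeb2 replicate 1 the Hox list had 23 and the neural crest list 21. Within 20 kb Epha4 had 1 member and with no limit 26. No paired analysis was possible because no test runs across libraries. Depth limits what absence means: fragments at the weakest listed peaks numbered 6 to 10.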
